A study of Zea mays with 13 samples.

Results

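Of 39424 maize gene models with enough background reads to be measured, 1004 carried the histone mark H3K27me3 and neither H3K4me3 nor H3K9ac, which is 2.55% of the measured genes. They were chosen by enrichment, the log2 ratio of a gene's share of the reads in an immunoprecipitated library to its share in whole chromatin that was not immunoprecipitated. In each library a cut was set 2-fold over the 25th percentile of enrichment, and a gene counted as marked if all 4 libraries of a mark exceeded it. It also had to have at least 20 whole-chromatin counts both in a 1 kb window at its start site and over the whole gene. The whole-gene background served for H3K27me3 and the 1 kb window for both active marks. The H3K27me3-only genes made up 23.7% of the 4235 genes marked by H3K27me3. A further 2801 of these genes carried H3K4me3 as well, 430 carried all 3 marks, and 0 carried H3K27me3 with H3K9ac alone. Another 13138 measured genes had no mark. The counts of these same libraries chose the genes, so their levels are a description, and no test was made of them.

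H3K27me3 is laid down by Polycomb repressive complexes and lies over genes that are kept silent in a tissue, often across the whole transcribed unit in plants. It is removed by demethylases, and many genes that carry it in one organ are active in another organ or stage. H3K4me3 and H3K9ac, in contrast, sit around the start sites of transcribed genes. In plants a part of the Polycomb targets also carries H3K4me3.

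Chromatin immunoprecipitation with sequencing was run on the immature leaves of the B73 inbred, still wrapped by older leaves, from a greenhouse where plants were watered normally up to stage V5-V6. Drought-stressed plants (WS) then received 25% of the disposable water for 10 days and well-watered control plants (NS) 75%, both at the same low salt level. Sampling took place when the stress ended (T0) and once more after 7 days of recovery (T7), giving the groups WST0, NST0, WST7 and NST7. Each mark had 1 library per group, 12 in all, and 1 further library held whole chromatin of control plants after the 10 days. No pair of groups therefore has a replicate, and no comparison of 1 library with another has a test of the conditions. Whether plants were pooled is not given in the sources used here.

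The libraries differed in depth. Totals over all features were between 1612935 and 1969485 counts for H3K27me3, between 2793985 and 6876219 for H3K4me3, and between 1152884 and 1856159 for H3K9ac. Whole chromatin had 3055058 counts in the 1 kb windows and 10976995 over whole genes. None of the 43789 gene model IDs in the tables occurred in the reference table at hand, a count of 0, so the genes are given by ID, and the leaf identity of the samples was not checked against marker genes. A microRNA gene, zma-mir167g, met the same criteria with 7, 8, 12 and 6 H3K27me3 counts in WST0, NST0, WST7 and NST7, but is not among the 1004, which are gene models only.

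At the H3K27me3-only genes the mark stood between 2 and 3 times above whole chromatin in every library. The median fold over whole chromatin was 2.70 in WST0, 2.94 in NST0, 2.87 in WST7 and 2.39 in NST7. The median count per gene was 43 in WST0, 48 in NST0, 49.5 in WST7 and 33 in NST7, against 29, 30, 33 and 26 at the other measured genes. The genes held 3.71% of all H3K27me3 counts in WST0, 3.98% in NST0, 3.87% in WST7 and 3.14% in NST7. By all of these measures the well-watered library after recovery was the lowest of the 4.

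The genes that also carried H3K4me3, but no H3K9ac, were more strongly enriched for H3K27me3 in each library, and the genes with all 3 marks less strongly. On the log2 scale the H3K27me3-only genes had median enrichments of 1.43 in WST0, 1.55 in NST0, 1.52 in WST7 and 1.26 in NST7. The genes with H3K4me3 and H3K27me3 had 1.678, 1.749, 1.805 and 1.515 in the same order of libraries, and the genes with all 3 marks had 1.34, 1.41, 1.46 and 1.24. The genes with no mark lay between 0.01 and 0.13. The 3 classes that carry H3K27me3 thus shared the lowest value in NST7.

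**Figure D1:**
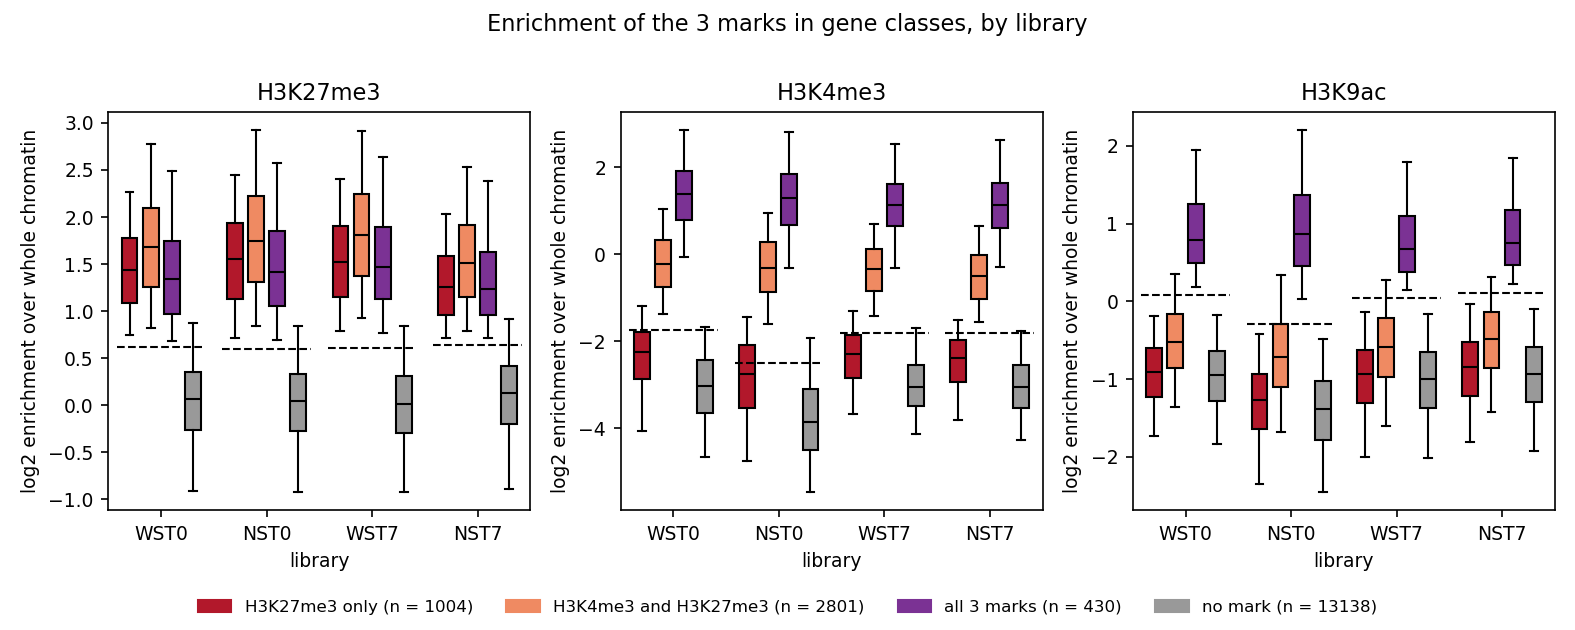
Enrichment over whole chromatin (log2) of H3K27me3, H3K4me3 and H3K9ac in each library, for 4 classes of genes. Boxes give the quartiles and the median over genes, whiskers the 5th and 95th percentiles, and dashed lines the value above which a gene counted as marked in that library; the H3K27me3-only genes sit lowest for H3K27me3 in NST7 (median 1.26) and close under the H3K4me3 line.

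The 5 genes with the strongest H3K27me3 stood well above the median. Zm00001d052069 had 133 counts in WST0, 186 in NST0, 155 in WST7 and 118 in NST7, with 106 whole-chromatin counts over the gene, a mean enrichment of 8.35-fold. Zm00001d048658 had 327, 449, 424 and 270 counts in the same libraries over 302 whole-chromatin counts, 7.24-fold. The highest value of both genes was that of NST0. Zm00001d022281 had 83, 92, 88 and 60 counts over 66 whole-chromatin counts, 7.32-fold. Zm00001d033772 had 53, 48, 71 and 49 counts over 50, 6.62-fold, and Zm00001d027686 had 31, 24, 35 and 18 counts over 22, 7.20-fold. Both of these were highest in WST7, and no library was the highest for all 5 genes. Few reads lie behind some of the strongest enrichments, as in Zm00001d027686.

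At the other end, the set ran without a break into the unmarked genes. The 3 genes closest above the cut, Zm00001d017666, Zm00001d018422 and Zm00001d035497, cleared it in their weakest library by 0.0012, 0.00047 and 0.00017 on the log2 scale. The 3 genes closest below it, Zm00001d014118, Zm00001d026411 and Zm00001d038360, each missed it by 0.0021 in 1 library. Among the genes with no mark, 673 lay above the H3K27me3 cut in 3 libraries, 987 in 2 and 2030 in 1. Zm00001d004701, at the minimum of 20 whole-chromatin counts over the gene, was taken in on 5, 5, 6 and 7 H3K27me3 counts in WST0, NST0, WST7 and NST7.

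Within the set, the order of the genes by H3K27me3 was similar in 3 of the libraries and less so in NST7. Across the 1004 genes, Spearman's rho of enrichment was 0.74 between WST0 and NST0, 0.74 between WST0 and WST7 and 0.77 between NST0 and WST7. Pairs with NST7 gave 0.59 with WST0, 0.60 with NST0 and 0.64 with WST7. Over all 39424 measured genes the pairs with NST7 gave 0.6295, 0.6354 and 0.6483 in the same order. The other pairs gave 0.637, 0.6468 and 0.6538, so NST7 hardly differed there. The set was chosen by a cut on these same values, which narrows their range. These correlations run across genes, which are no replicates, and all share the whole-chromatin counts. For 569 of the 1004 genes (56.7%) the lowest enrichment was that of NST7, against 25.7% of all measured genes. The highest was that of NST0 for 372 genes (37.1%, against 23.1% of all measured genes) and of WST7 for 312 (31.1%, against 24.2%).

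The absence of H3K4me3 was a matter of degree. Of the 1004 genes, 519 lay below the H3K4me3 cut in all 4 libraries, while 153 were above it in 1 library, 145 in 2 and 187 in 3. Among the genes with no mark, 83.9% were above it in no library and 5.56% in 3. The mean distance to the cut over the libraries had a median of -0.46 on the log2 scale in the H3K27me3-only genes and -1.37 in the genes with no mark. The H3K27me3-only genes thus lay nearer to the H3K4me3 cut, and 532 of them (53.0%) were within 0.5 below it or above it, against 17.5% of the genes with no mark. The library in which the 187 genes missed the cut was NST7 for 95 of them, WST0 for 52, WST7 for 38 and NST0 for 2.

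The genes with the highest H3K4me3 show what the cut separates. Zm00001d031066 had 49 H3K4me3 counts in WST0, 73 in NST0, 46 in WST7 and 17 in NST7, with 48 whole-chromatin counts in the 1 kb window. Its H3K27me3 counts in these libraries were 36, 34, 51 and 23. It passed the H3K4me3 cut in 3 libraries and fell short in 1. Zm00001d016505 had 37, 58, 67 and 23 H3K4me3 counts beside 80, 82, 115 and 55 of H3K27me3. At the lowest end, Zm00001d025389 had 4, 2, 5 and 2 H3K4me3 counts beside 95, 109, 123 and 47 of H3K27me3, over 66 whole-chromatin counts in the 1 kb window. That gene carried hardly any H3K4me3 read in any group at a 3.91-fold mean enrichment of H3K27me3.

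H3K9ac was as low as at genes with no mark. Of the 1004 genes, 931 were below the H3K9ac cut in every library, 60 passed it in 1, 13 in 2 and 0 in 3. The median distance to the cut was -1.02 in the H3K27me3-only genes and -1.08 in the genes with no mark. Within the set, mean H3K27me3 enrichment had a Spearman's rho of 0.18 with that of H3K4me3 and of -0.14 with that of H3K9ac across 1004 genes. These are weak values from counts that share a library of whole chromatin, in a set chosen by cuts on all 3 marks. Over all 39424 measured genes the values were -0.23 and -0.28, so the sign for H3K4me3 was the opposite.

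Whole-chromatin counts over the gene divided by those in the 1 kb window had a median of 1.42 in the H3K27me3-only genes. Both counts entered the rule, gene lengths were not at hand, and windows with very high counts also lower this ratio. It was 1.44 in genes with H3K4me3 and H3K27me3, 1.62 in genes with no mark, 3.21 in genes with H3K4me3 only and 4.05 in genes with both active marks. In 356 H3K27me3-only genes (35.5%) the whole gene held fewer counts than the 1 kb window, against 28.0% of genes with H3K4me3 and H3K27me3 and 31.9% of genes with no mark. The choice of window bears on the set itself. With the whole-gene background for the active marks, 602 of the 1004 genes remained H3K27me3-only, 199 carried all 3 marks, 164 carried H3K27me3 and H3K9ac, and 39 carried H3K27me3 and H3K4me3. The window in which the authors counted each mark is not given in the sources used here.

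H3K27me3-only genes had more neighbours of their own kind than their share of all genes. Neighbours are the next measured genes in the row order of the tables. This order was checked at the microRNA genes that stand among the gene models, where 142 of 142 consecutive pairs of microRNA genes on the same chromosome were in ascending position in the reference table's assembly, Zm-B73-REFERENCE-NAM-5.0. Of the 2008 neighbours of H3K27me3-only genes in that order, 242 (12.1%) were H3K27me3-only genes too. Of the neighbours of genes with no mark 2.46% were, and of all measured genes 2.55%. Genes with H3K4me3 and H3K27me3 made up 13.8% of the neighbours of H3K27me3-only genes, against 6.64% of the neighbours of genes with no mark. At least 1 neighbour carried H3K27me3 at 450 of the 1004 genes (44.8%) and at 18.7% of the genes with no mark. These shares are a description, with no test.

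The excess was largest at the nearest gene. The share of H3K27me3-marked genes was 27.1% at the nearest gene to either side of an H3K27me3-only gene, 18.0% at the one beyond it, 17.9% at the next and 13.7% at the one after. From 5 to 9 genes away it lay between 12.9% and 13.8%, and at 10 it was 10.96%, against 10.7% of all measured genes. Around genes with no mark it stayed between 10.2% and 10.8% over the same distances.

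**Figure D2:**
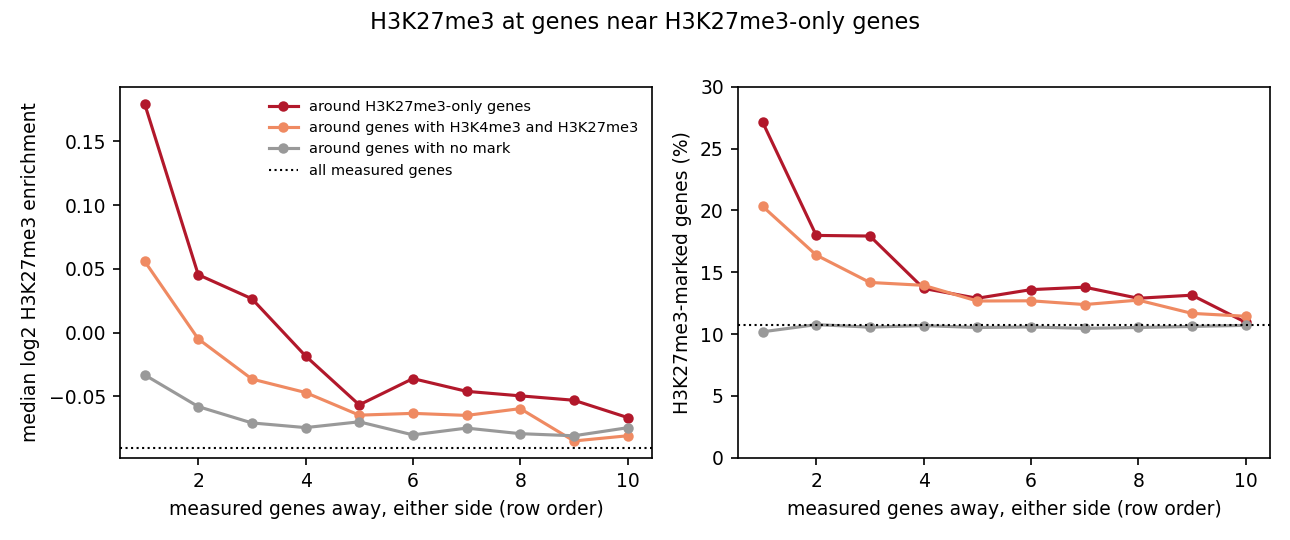
H3K27me3 at the measured genes 1 to 10 places to either side, in row order, of H3K27me3-only genes, of genes with H3K4me3 and H3K27me3 and of genes with no mark. The left panel gives the median log2 enrichment over whole chromatin and the right panel the share of genes that are H3K27me3-marked; dotted lines are all measured genes (10.7% in the right panel), and the red curve starts at 27.1%.

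Most of the genes nevertheless stood alone. In row order 786 of them had no H3K27me3-only neighbour, 82 runs held 2 such genes, 10 runs held 3, 3 runs held 4 and 2 runs held 6. Of the 2 runs of 6, 1 was Zm00001d040026 with Zm00001d000492 to Zm00001d000496, genes with nearly the same H3K27me3 counts. Zm00001d040026 had 43, 56, 39 and 29 in WST0, NST0, WST7 and NST7, and Zm00001d000492 had 41, 55, 39 and 28. Counting every gene with H3K27me3, the 1004 genes fell into 864 stretches, of which 554 were a single gene.

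Among unbroken stretches of H3K27me3-marked genes that held an H3K27me3-only gene, the longest ran from Zm00001d025388 to Zm00001d025396. It held 9 genes, 3 of them without an active mark. Zm00001d025389, Zm00001d025392 and Zm00001d025395 lay singly between 6 genes that carried H3K4me3 as well. Zm00001d025392 had 158, 217, 213 and 108 H3K27me3 counts in WST0, NST0, WST7 and NST7, beside 5, 6, 21 and 10 of H3K4me3. Its neighbour Zm00001d025391 had 122, 163, 155 and 81 of H3K27me3, beside 34, 61, 67 and 36 of H3K4me3. By definition every gene of a stretch was above the H3K27me3 cut in every library, and sequence between genes was not measured. Within this stretch H3K4me3 came and went between neighbours. Their mean H3K4me3 distances to the cut were -1.569 at Zm00001d025392 and 1.796 at Zm00001d025391.

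A stretch from Zm00001d007725 to Zm00001d007733 was the reverse, with 6 H3K27me3-only genes in a row after a single gene with H3K4me3. Zm00001d007728 had 215, 183, 227 and 137 H3K27me3 counts in WST0, NST0, WST7 and NST7, and 0, 5, 17 and 8 of H3K4me3. The gene before the stretch, Zm00001d007720, had no mark, with 15, 26, 22 and 27 H3K27me3 counts over 114 in whole chromatin. Zm00001d007735, after it, had no mark either. In another stretch, from Zm00001d022278 to Zm00001d022284, 4 of 7 genes were H3K27me3-only, and it held Zm00001d022281, one of the strongest. There the H3K27me3-only genes lay close to the H3K4me3 cut, at a mean of 0.42 above it for Zm00001d022281, which nevertheless missed it in 2 libraries.

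**Figure D3:**
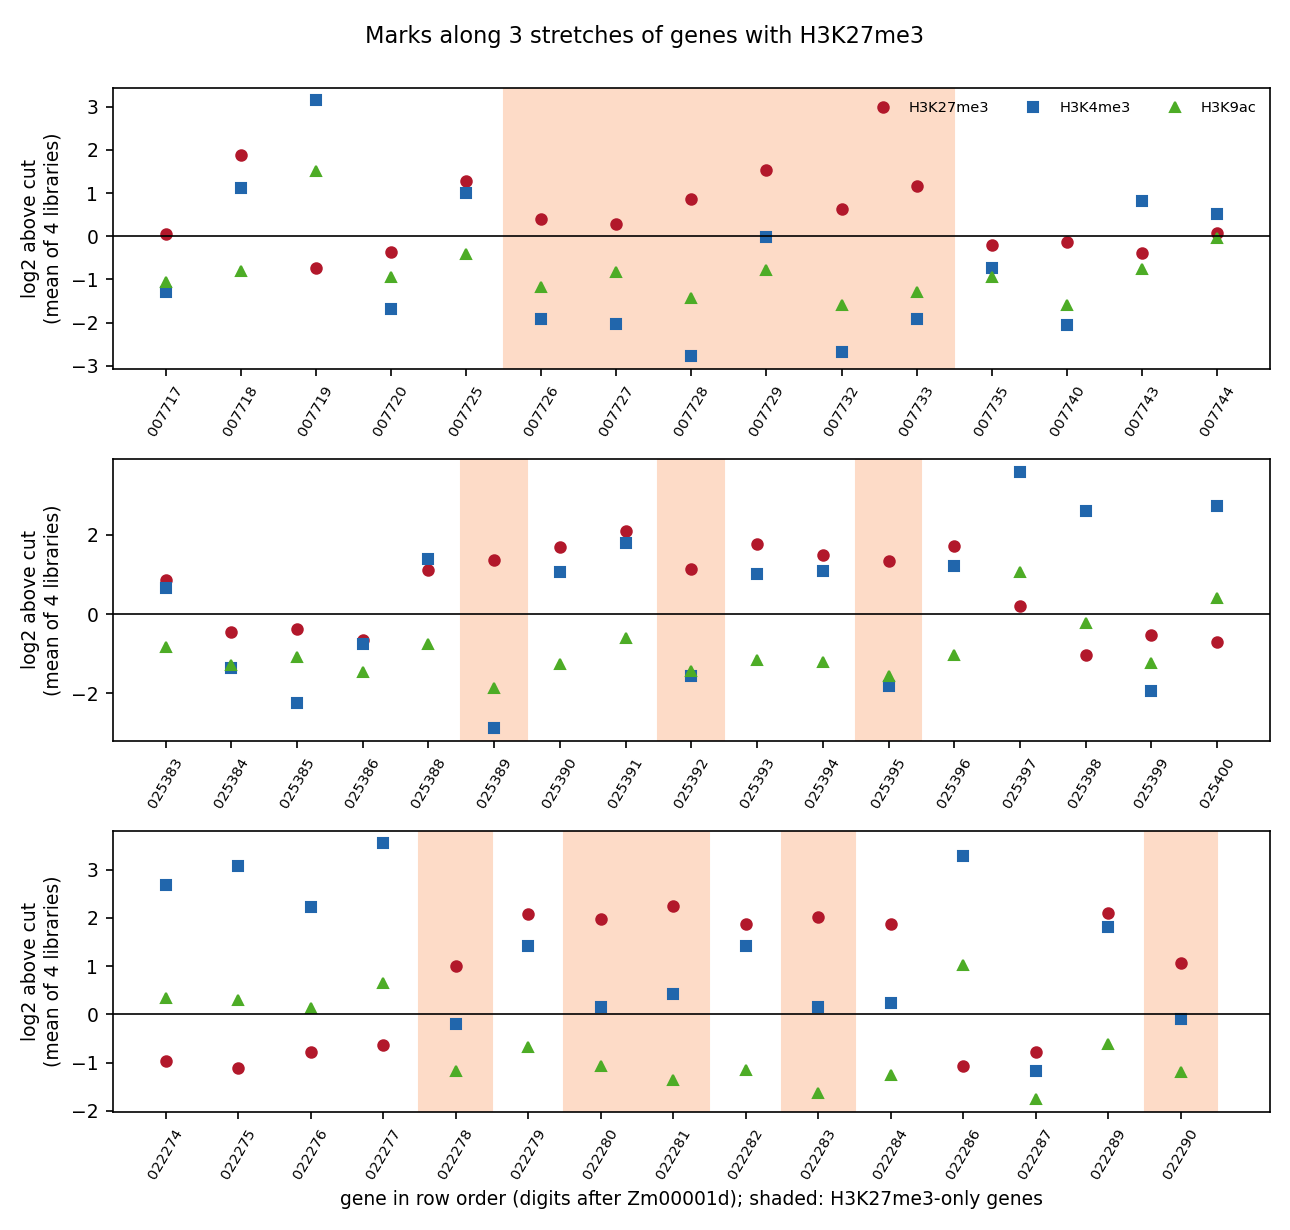
Mean distance of each mark to its cut over 4 libraries (log2, 0 is the cut) along 3 stretches of neighbouring measured genes in row order, at Zm00001d007725, Zm00001d025388 and Zm00001d022278. Shaded columns are H3K27me3-only genes: in the top panel 6 of them follow each other with H3K27me3 above and H3K4me3 at or below 0, and in the middle panel 3 alternate with genes whose H3K4me3 is above 0.

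Some neighbours are not independent measurements. In 3 groups, 10 H3K27me3-only genes had nearly the same counts as the next gene in all 12 libraries, within 3 counts or 10%. The largest was Zm00001d000492 to Zm00001d000496, also the longest run of consecutive ID numbers with 5 genes. Zm00001d000492 had 41, 55, 39 and 28 H3K27me3 counts in WST0, NST0, WST7 and NST7, and Zm00001d000496 had 38, 47, 34 and 26. Their H3K4me3 counts were the same in every library, at 10, 19, 26 and 18. By these counts the 5 IDs cannot be told apart at their start sites. With 1 gene kept per group, 11.4% of the neighbours were still H3K27me3-only and 44.3% of the genes had a marked neighbour.

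Between libraries, the H3K27me3 counts of these genes were compared after TMM scaling, with a rule of size in place of a test. A gene met it when the ratio was at least 1.5-fold and its exact 99.9% conditional binomial interval left out 1, among features with at least 40 counts over the 4 libraries. For H3K27me3, 942 of the 1004 genes passed the minimum. Intervals printed beside ratios of single genes are at 95% and cover counting error alone, and reads are not known to be independent molecules.

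At the end of the stress few genes differed in H3K27me3 by the rule. The rule took 0 of the 942 genes as higher, against 0.109% of all features, and 7 as lower (0.743%), against 0.103%. The median log2 ratio of WST0 over NST0 was -0.09, against 0.01 over all features. Zm00001d047113 had 7 counts in WST0 and 28 in NST0, a log2 ratio of -1.88 (95% interval -3.39 to -0.72). Zm00001d034084 had 48 in WST0 and 91 in NST0, -0.87 (-1.41 to -0.35), and Zm00001d051140 had 57 and 105, -0.83 (-1.32 to -0.35). All 7 genes also had WST7 over WST0 ratios above 0, in a comparison that shares the WST0 library.

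After recovery the library of the stressed plants held more H3K27me3 at these genes than that of the well-watered ones. In WST7 over NST7 the rule took 32 genes as higher (3.40%), against 0.425% of all features, and 0 as lower, against 0.130%. The median log2 ratio was 0.28, and 78.0% of the 942 genes were above 0, against 49.2% of all features. Zm00001d004630 led with 120 counts in WST7 and 37 in NST7, a log2 ratio of 1.40 (0.87 to 1.98). It had 60 in WST0 and 83 in NST0, so that WST7 was the highest and NST7 the lowest of its libraries. Zm00001d045680 had 50 counts in WST7 and 16 in NST7, 1.33 (0.52 to 2.27), and Zm00001d004389 had 72 and 24, 1.28 (0.62 to 2.03).

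The well-watered library after recovery was the one that stood apart. In NST7 over NST0 the rule took 53 genes as lower (5.63%), against 0.665% of all features, and 0 as higher, against 0.0975%. The median was -0.30. In WST7 over WST0 it took 3 as higher (0.318%), against 0.121%, and 0 as lower, against 0.0768%, with a median of 0.06. The lower signal in NST7 enters 2 of these comparisons, and 19 genes were past the rule in both, lower in NST7 over NST0 and higher in WST7 over NST7. Both use the same NST7 library, so the second count is no independent sign of the first. At the 53 genes WST0 over NST0 had a median of -0.33, with 50 of 53 below 0. WST7 over NST7 had a median of 0.59, with 53 of 53 above 0. Each of these shares a library with the comparison that chose the genes, so a high NST0 entered the choice beside a low NST7.

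The 3 genes with the largest drop in NST7 over NST0 were chosen for a low NST7 value beside a high NST0 value. Their counts thus describe the size of the drop alone. Zm00001d017033 had 12 H3K27me3 counts in NST7 and 41 in NST0, a log2 ratio of -1.53 (-2.64 to -0.62), with 22 in WST7 and 15 in WST0. Zm00001d044052 had 36 in NST7 and 99 in NST0, -1.25 (-1.85 to -0.70), with 89 in WST7 and 83 in WST0. Zm00001d033583 had 26 in NST7 and 64 in NST0, -1.08 (-1.82 to -0.42), with 48 in WST7 and 37 in WST0. NST0 was the highest library in enrichment at all 3 genes. WST7 and WST0 had no common order, since WST7 was above WST0 in enrichment at Zm00001d017033 and Zm00001d033583 and just below it at Zm00001d044052. Of the 3 genes higher in WST7 over WST0, Zm00001d013494 was the furthest, with 37 counts in WST7 and 10 in WST0, a log2 ratio of 1.70 (0.72 to 2.92). WST0 was the lowest of its libraries, with 24 counts in NST0 and 19 in NST7.

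The shift was common to genes with H3K27me3 and grew with the strength of the mark. In WST7 over NST7 the genes with H3K4me3 and H3K27me3 had a median log2 ratio of 0.30 and those with all 3 marks 0.24, against -0.09 in genes with no mark. When the H3K27me3-only genes were split into tertiles by their enrichment in WST0 and NST0, libraries outside the comparison, the medians of WST7 over NST7 were 0.11, 0.30 and 0.38 from the weakest to the strongest. The share above 0 was 63.4%, 79.4% and 89.2%. Split by WST7 and NST7, WST0 over NST0 gave -0.03, -0.09 and -0.15. The ratios thus leaned away from 0 most where the mark was strongest, in opposite directions at the 2 times.

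A trend of this form can be removed by fitting a smooth curve of each library on mean enrichment over all features. The medians of the H3K27me3-only genes were then -0.02 in WST0 over NST0, 0.01 in WST7 over NST7, -0.07 in NST7 over NST0 and -0.04 in WST7 over WST0. The genes past the rule numbered 0, 1, 3 and 1 in these comparisons. This step sets each gene against others of like enrichment. A change of the mark across all its targets and a lower yield of the immunoprecipitation in 1 library cannot be told apart, with 1 library per group.

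**Figure D4:**
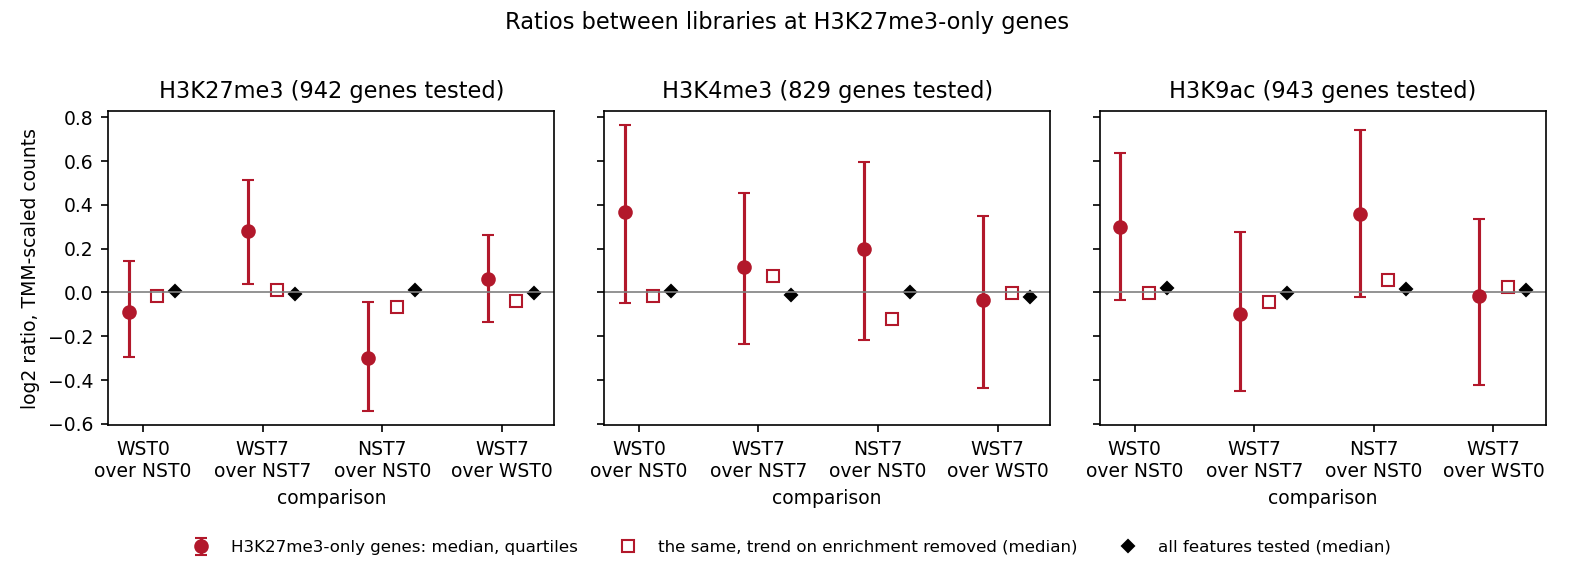
Log2 ratios between libraries at the H3K27me3-only genes for each mark, as medians with quartiles over the genes tested. Open squares are the medians with the trend on enrichment removed and black diamonds the medians of all features; for H3K27me3 the medians of 0.28 in WST7 over NST7 and -0.30 in NST7 over NST0 move to 0.01 and -0.07 on removal of the trend.

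The test that all 4 H3K27me3 libraries allow found no gene. edgeR's quasi-likelihood test with additive terms for watering and time called 0 of the 942 genes for either term at an adjusted p of 0.05, and 0.00% of all features. At an unadjusted p under 0.05 it had 37 genes for watering (3.93%, against 3.54% of all features) and 61 for time (6.48%, against 3.92%), and DESeq2 called 0 and had 0 under 0.05 for both. In this fit the difference between the drought effects at T0 and T7 serves as the error, so that each gene has 1 residual degree of freedom of its own. Nothing says that libraries came from separate plants, so p-values measure the spread between these libraries. The difference of the drought effects itself had 155 genes at an unadjusted p under 0.05 (16.5%, against 6.53% of all features). It called 0, against 0.00% of all features, with 0.0629 as the smallest adjusted p.

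H3K4me3 at these genes was low, and its ratios to NST0 were mostly above 0. Of the 1004 genes, 829 had at least 40 H3K4me3 counts over the 4 libraries. Median counts were 11 in WST0, 21 in NST0, 24 in WST7 and 15 in NST7, and the largest library, NST0, held the smallest share of its reads at these genes, 0.422%, against 0.597% in WST0, 0.597% in WST7 and 0.579% in NST7. The median log2 ratio of WST0 over NST0 was 0.37 in the H3K27me3-only genes and 0.52 in genes with no mark. In NST7 over NST0 these medians were 0.20 and 0.48, and in WST7 over NST7 they were 0.11 and 0.02. With the trend on enrichment removed, the medians of the H3K27me3-only genes were -0.01 in WST0 over NST0 and -0.12 in NST7 over NST0.

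By the rule of size, H3K4me3 was higher in WST0 over NST0 at 26 of the 829 genes (3.14%), against 1.24% of all features, and lower at 0, against 0.726%. In WST7 over NST7 it was higher at 0 and lower at 0, against 0.0982% and 0.0926%. In NST7 over NST0 it was higher at 21 (2.53%), against 1.30%, and lower at 3 (0.362%), against 1.74%. In WST7 over WST0 it was higher at 2 (0.241%), against 0.522%, and lower at 5 (0.603%), against 1.74%.

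Many of these calls came from 15 genes with very high whole-chromatin counts. These 15 had 211 to 1907 counts in the 1 kb window, where the median of all 1004 genes was 64. They supplied 27.6% of the H3K4me3 counts of all 1004 genes in WST0, 19.3% in NST0, 27.3% in WST7 and 32.8% in NST7, but between 5.54% and 6.83% of their H3K27me3 counts. Their median H3K27me3 enrichment was 0.94, against 1.42 in the other 989 genes. These windows thus held many reads where no antibody was used. In WST0 over NST0, 14 of the 26 higher genes were among them, and 12 calls were left without them. In NST7 over NST0, 14 of the 21 were, and 7 were left. The limit of 200 counts was set after the values were seen.

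**Figure D5:**
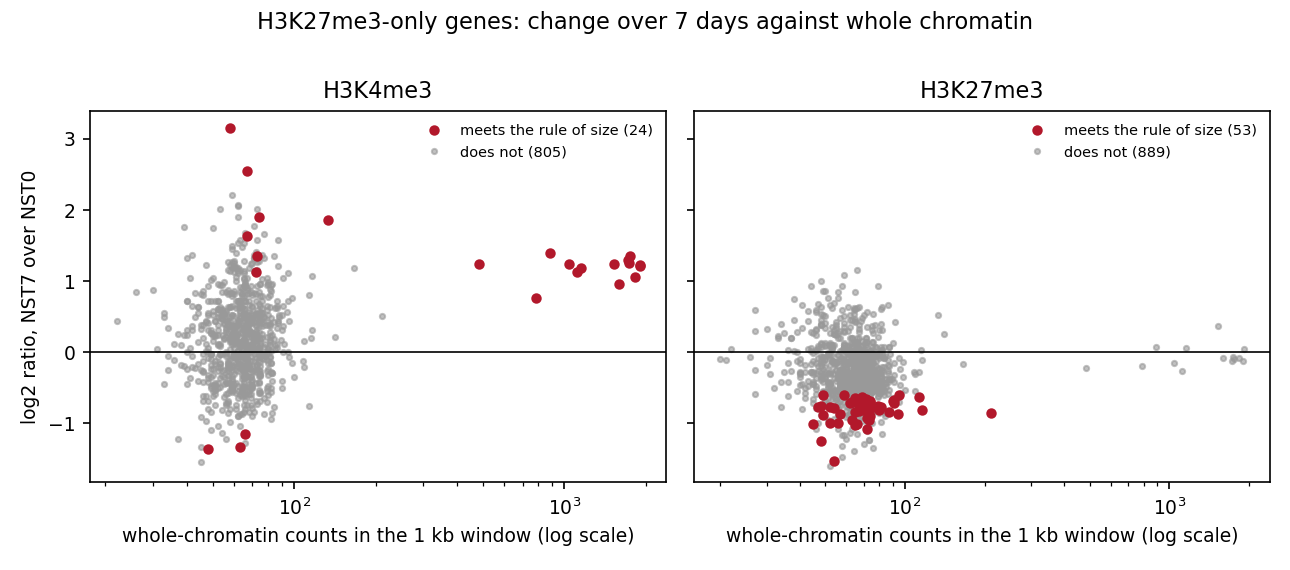
Log2 ratio of NST7 over NST0 at each H3K27me3-only gene tested, for H3K4me3 and H3K27me3, against whole-chromatin counts in the 1 kb window (log axis). Red points meet the rule of size; for H3K4me3, 14 of the 21 higher genes lie at or above 200 whole-chromatin counts, and for H3K27me3 the 53 red points are all lower and lie mostly below 200.

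Outside that group, a few genes had H3K4me3 ratios beyond counting error. Zm00001d022686 had 24 H3K4me3 counts in NST7 and 4 in NST0, a log2 ratio of 3.16 (1.76 to 5.29), with 13 in WST0 and 14 in WST7. After scaling, NST0 was its lowest library. WST7 also stood below NST7 and WST0, at log2 ratios of -1.34 and -1.02. Zm00001d048745 had 87 counts in WST7 and 11 in WST0, 1.801 (0.947 to 2.912), with 59 in NST0 and 32 in NST7. Zm00001d040253 had 50 in WST7 and 6 in WST0, 1.83 (0.71 to 3.45), with 26 in NST0 and 19 in NST7. After scaling, WST0 was the lowest and WST7 the highest library of both genes. The log2 ratios of WST0 over NST0 were -1.11 at Zm00001d048745 and -0.77 at Zm00001d040253. Those of WST7 over NST7 were 0.85 and 0.79. Zm00001d032821 had 16 in NST7 and 68 in NST0, -1.34 (-2.26 to -0.57), and Zm00001d013494 had 24 in NST7 and 89 in NST0, -1.15 (-1.89 to -0.51).

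H3K4me3 was the mark with calls in the additive fit, all for time. edgeR's quasi-likelihood test called 13 of the 829 genes, with 12 higher at T7 and 1 lower, against 0.869% and 3.03% of all features and 3.90% in either direction. DESeq2 called 0 for time and had 8 at an unadjusted p under 0.05. Of the 13, 10 had at least 200 whole-chromatin counts in the 1 kb window. Zm00001d019608 had the smallest adjusted p, with 945 H3K4me3 counts in WST7 and 694 in NST7, against 330 in WST0 and 485 in NST0. Its log2 change of T7 over T0 was 0.82 (SE 0.10, adjusted p = 6.07e-06 by edgeR's quasi-likelihood test), on 1897 whole-chromatin counts. The libraries held 5980217 counts in WST7 and 4059090 in NST7, against 2793985 in WST0 and 6876219 in NST0, and both T7 libraries were higher than both T0 libraries per count sequenced.

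The other 3 genes had 48 to 72 whole-chromatin counts in the 1 kb window. Zm00001d031066 was the only one lower at T7, by a log2 change of -1.28 (SE 0.26, adjusted p = 0.00194 by the same edgeR test), with 46 H3K4me3 counts in WST7 and 17 in NST7, against 49 in WST0 and 73 in NST0. Zm00001d038049 was higher at T7 by 1.10 (SE 0.27, adjusted p = 0.0137), with 68 in WST7 and 48 in NST7, against 15 in WST0 and 36 in NST0. Zm00001d036652 was higher by 1.33 (SE 0.37, adjusted p = 0.0308), with 51 and 37 at T7, against 19 and 10 at T0. After scaling, each of these genes had the same direction in both watering groups, but not always a like size. At Zm00001d036652 the log2 ratio was 2.55 in NST7 over NST0 and 0.27 in WST7 over WST0. Its WST0 over NST0 ratio was 2.15, so NST0 was far below the other libraries. For watering, 0 of the 829 genes were called, against 0.00280% of all features, with 65 at an unadjusted p under 0.05 (7.84%, against 6.62%), and DESeq2 called 0 and had 1 under 0.05.

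H3K9ac met the rule of size at few of the genes. Of the 1004 genes, 943 passed the minimum. The rule took 8 as higher in WST0 over NST0 (0.848%), against 0.441% of all features, and 0 as lower, against 0.831%. In WST7 over NST7 it took 0 as higher, against 0.0775%, and 2 as lower (0.212%), against 0.116%. In NST7 over NST0 it took 19 as higher (2.01%), against 0.722%, and 0 as lower, against 0.714%, and without the 15 genes of high whole-chromatin counts 5 were left. In WST7 over WST0 it took 0 in either direction, against 0.131% and 0.177%. The median log2 ratio was 0.30 in WST0 over NST0 and 0.36 in NST7 over NST0, against 0.37 and 0.40 in genes with no mark. With the trend on enrichment removed, these medians of the H3K27me3-only genes were -0.0003 and 0.06. In WST7 over NST7 and WST7 over WST0 the medians before removal were -0.10 and -0.01. The 14 genes past the rule for both active marks in NST7 over NST0 were all among those 15.

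The genes named for H3K9ac had few reads in the lower library. Zm00001d001518 had 19 H3K9ac counts in WST0 and 3 in NST0, a log2 ratio of 2.66 (1.08 to 5.24), with 11 in WST7 and 10 in NST7. Zm00001d007365 had 25 in WST0 and 5 in NST0, a log2 ratio of 2.39 (1.09 to 4.25), with 10 and 9 at T7. Zm00001d013560 had 1 count in WST7 and 15 in NST7, -3.25 (-9.19 to -1.09), and Zm00001d003218 had 2 and 19, -2.85 (-6.28 to -1.08). At Zm00001d001518 NST0 stood apart as the lowest library, and at Zm00001d013560 and Zm00001d003218 WST7 did. At Zm00001d007365 the T7 libraries lay between WST0 and NST0, at log2 ratios of 1.32 in NST7 over NST0 and -0.81 in WST7 over WST0. edgeR's quasi-likelihood test called 0 of the 943 genes for watering and 0 for time, against 0.00242% and 0.00% of all features. At an unadjusted p under 0.05 it had 40 for watering (4.24%, against 4.01% of all features) and 26 for time (2.76%, against 4.54%), and DESeq2 called 0 and had 0 and 2.

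Over all 4 comparisons, 73 of the 1004 genes met the rule for H3K27me3 (7.27%, against 1.26% of all measured genes) and 52 for an active mark (5.18%, against 7.27%). Both were met by 6 genes, which is 8.22% of the 73 and 11.5% of the 52. Among all measured genes 42 met both, 8.43% of those past the rule for H3K27me3 and 1.47% of those past it for an active mark. At the 53 genes lower for H3K27me3 in NST7 over NST0, the H3K4me3 ratio of the same libraries was above 0 at 32 of the 41 genes tested, with a median of 0.44, and the H3K9ac ratio at 42 of the 51 tested, with a median of 0.54. All H3K27me3-only genes tested had medians of 0.20 for H3K4me3 (61.8% above 0) and 0.36 for H3K9ac (73.6% above 0) in these libraries, and genes with no mark had 0.48 and 0.40. The difference between the 53 genes and the rest was not tested. Zm00001d013494 was among the 6, with H3K4me3 lower in NST7 over NST0 and H3K27me3 higher in WST7 over WST0, in comparisons that share no library.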

How the data were processed

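Reads of 13 libraries were processed by the authors, and the deposited values are raw read counts per feature, not normalized, per the labels. The submitters' processing notes list CASAVA 1.8, Bowtie2 and the build B73 RefGen_v4. How reads were counted, in which window and with or without duplicates is not given in the sources used here. Library totals and the precision they give are in the results.

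Features were joined by ID (43943 in each table, 154 of them microRNA genes), and 363 had under 20 whole-chromatin counts in the 1 kb window and 4363 over the gene. Enrichment was the log2 of count plus 0.5 over the library total, minus the same in whole chromatin. The only whole-chromatin library is of control plants at T0, so differences in background between groups were not measured. TMM scaling used the 4 libraries of each mark together. Intervals are exact conditional binomial (Clopper-Pearson), and log2 ratios carry a prior of 0.5 counts. Fits used edgeR 4.0.16 and limma 3.58.1 in R 4.3.3, with Benjamini-Hochberg adjustment over all features, DESeq2 1.42.0 as the alternative tool, and Python 3.11.15 for the rest. The trend on enrichment was a lowess curve with a span of 0.2. The code was tested on simulated data.

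Genes were named by rule: the 5 strongest, the 3 nearest each side of the cut, up to 3 per comparison and direction past the rule of size and up to 5 per term of the additive fit, the extremes of whole-chromatin count and of H3K4me3, and the longest run of IDs. Genes named in stretches, in near-identical groups, as the remaining calls of the additive fit and for the difference of the drought effects were chosen after their values were seen. Gene lists by function could not be applied without gene descriptions. The set of genes and the lists were chosen with earlier results of these data known.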

Additional observations from a re-analysis of the deposited data

Results flagged for a closer look

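At 7 of the 829 H3K27me3-only genes tested for H3K4me3, the ratio of stressed over well-watered libraries differed between T7 and T0. With 1 library per group, this is a difference among single libraries and no replicated effect of drought. The calls came from edgeR's quasi-likelihood test of the difference, with Benjamini-Hochberg adjustment, in which the mean drought effect served as error. This fit was added after the data were seen, and it called 0.280% of all features. Zm00001d019602 had an adjusted p of 8.85e-05, with a log2 ratio of -0.36 in WST7 over NST7 and of 1.24 in WST0 over NST0. Its H3K4me3 counts were 350 in WST7 and 299 in NST7, and 285 in WST0 and 288 in NST0, with 787 whole-chromatin counts in the 1 kb window and 34 over the gene. Zm00001d003908 had an adjusted p of 0.000423 and ratios of -0.22 at T7 and 1.34 at T0. For Zm00001d001139 the adjusted p was 0.000537, with -0.42 at T7 and 1.08 at T0. Zm00001d035969 had 0.00216, with -0.27 and 1.16, and Zm00001d027561 had 0.0038, with -0.37 and 1.01. The remaining 2 were Zm00001d018162, at 0.00888 with -0.24 and 1.09, and Zm00001d019603, at 0.0268 with -0.23 and 0.98. All 7 genes had ratios under 0 at T7 and over 0 at T0, and all 7 had at least 787 whole-chromatin counts in the 1 kb window, where the median of the H3K27me3-only genes was 64. Of the 15 H3K27me3-only genes with at least 200 such counts, 100% had H3K4me3 ratios above 0 in WST0 over NST0 and 6.67% in WST7 over NST7. Genes with no mark had median H3K4me3 ratios of 0.52 in WST0 over NST0 and 0.02 in WST7 over NST7. This fit was not rerun with the trend on enrichment removed. The part of the whole-chromatin signal in this result was not tested. For H3K27me3 and H3K9ac the same fit called 0 of the 942 and 943 genes tested, with 155 (16.5%, against 6.53% of all features) and 63 (6.68%, against 6.59%) at an unadjusted p under 0.05.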

How the results depend on the processing

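Of 222 recomputed counts, 183 lay within 1.5 times of the reported count and 39 did not, which says nothing of which genes were counted. The set of 1004 genes shrank to 634 with at least 50 whole-chromatin counts and grew to 2245 with the cut at the 25th percentile plus 0.5, 684 of the 1004 being in it. With the cut at plus 1.5 it had 768 genes, and 466 of the 1004 were among them. In the order WST0 over NST0, WST7 over NST7, NST7 over NST0, WST7 over WST0, removing the trend on enrichment left 0 lower, 1 higher, 3 lower and 1 higher for H3K27me3. For H3K4me3 it left 7 higher in WST0 over NST0 and gave 1 lower in WST7 over NST7. Most of the other H3K4me3 calls were kept. In NST7 over NST0 these were 15 of the 21 higher and 3 of the 3 lower. In WST7 over WST0 they were 2 of the 2 higher and 4 of the 5 lower. For H3K9ac it gave 1 higher and 1 lower in WST0 over NST0, 1 lower in WST7 over NST7 and 9 higher in NST7 over NST0. A 2-fold minimum left 1, 7 and 6 of the 7, 32 and 53 H3K27me3 calls and 6 of the 19 for H3K9ac. At least 100 counts left 17 higher in WST0 over NST0 and 3 lower in WST7 over WST0 for H3K4me3, and 3 higher in WST0 over NST0 and 0 lower in WST7 over NST7 for H3K9ac. Scaling by total counts gave 1 higher H3K4me3 gene in WST7 over NST7.

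The genes that are H3K27me3-only with the whole-gene background for the active marks numbered 1062, with 602 of the 1004 among them. How many of the 1062 passed the minimum of counts is not given here, so their counts are not shares and compare loosely with those of the 1004. These genes had 66 higher for H3K27me3 in WST7 over NST7, where 0.425% of all features were. They had 119 lower in NST7 over NST0, where 0.665% of all features were. For H3K4me3 they had 13 higher and 3 lower in WST0 over NST0, 1 lower in WST7 over NST7, 9 higher and 5 lower in NST7 over NST0 and 2 lower in WST7 over WST0. For H3K9ac they had 2 higher and 1 lower in WST7 over NST7, 6 higher and 1 lower in NST7 over NST0 and 1 higher in WST7 over WST0. Without the 15 genes of at least 200 whole-chromatin counts, an alternative chosen after seeing the data, 12 and 7 H3K4me3 and 5 H3K9ac calls were left. In the additive fit, H3K4me3 had 1 gene called for watering without the filter on low counts and 0 for time with DESeq2. The causes were not tested. No paired analysis was possible because each group has 1 library per mark; no library was left out, since the additive fit would then have no residual degree of freedom. Depth also limits the set: 62 of the 1004 genes had under 40 H3K27me3 counts over 4 libraries and 175 under 40 H3K4me3 counts.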
